A study of Mus musculus with 11 samples.

Results

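Imprinted genes are transcribed mainly or only from the copy inherited from 1 parent. The 33 genes described here were listed by symbol as imprinted genes of the mouse, by a rule that uses no measured value, but the list was drawn up with earlier results of these data known. All 33 were found among the 56941 genes of the deposited table, and all 33 had enough counts to be tested. By position they fell into 14 clusters, taken as listed genes on 1 chromosome that lie within 2 Mb of the next. Of these clusters, 8 held at least 2 of the genes and 6 held a single gene.

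Sorted mouse pituitary cells with mutant APC, a brake on WNT signalling, were compared with wildtype cells by RNA sequencing. The data comprised 5 libraries of APC-mutant genotype, numbered 1, 2, 4, 5 and 6, and 6 libraries of wildtype genotype, numbered 1 to 6. Mutant titles carry the word Lef1 and wildtype titles the prefix ROSAJC (replicates 1 to 4) or ROSAE (replicates 5 and 6), with no meaning given. The sorting gate, the allele and what drives it, the age of the mice and whether each library came from a separate animal are not stated, so p-values measure only the spread between these libraries. Levels are CPM, counts relative to the library's total, after scaling by the trimmed mean of M-values, with APC-mutant libraries in the order of their replicate numbers, and gene coordinates are on GRCm39. A gene was called higher or lower in APC-mutant libraries at a Benjamini-Hochberg adjusted p under 0.05 in edgeR's quasi-likelihood test over all 20622 genes tested.

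An imprint is laid down in the germ line as DNA methylation at a control region on the maternal or the paternal chromosome. After fertilisation it is kept through cell division, and it sets which parental copy of the neighbouring genes is transcribed. Imprinted genes lie in clusters in which growth-promoting and growth-limiting proteins neighbour long non-coding RNAs. Many are abundant in embryonic tissue and in neuroendocrine cells, and several, among them Dlk1, Gnas and Nnat, are known in the pituitary. The counts sum both parental copies, so these data measure how much RNA each locus gave and not from which parent it came. In bulk samples such as these, fewer cells of a type and less RNA per cell cannot be told apart.

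Several long non-coding members are hosts or neighbours of microRNAs, and their sequences show what these transcripts carry. The table of RefSeq (GRCm38.p6) places 112 mature microRNAs from 60 hairpins between Dlk1 and Mirg. They have 102 different seeds (bases 2 to 8, in capitals here), and 10 seeds are shared by a pair. The following are the microRNA inside H19, a pair on the strand opposite to Rtl1, 1 inside Mirg, and a pair of the cluster that shares its seed. No mature microRNA was measured in these poly(A) libraries.
mmu-miR-675-5p (H19): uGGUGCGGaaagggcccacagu
mmu-miR-127-3p (opposite Rtl1): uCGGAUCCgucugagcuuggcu
mmu-miR-433-3p (opposite Rtl1): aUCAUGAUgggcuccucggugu
mmu-miR-410-3p (Mirg): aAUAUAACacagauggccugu
mmu-miR-379-3p (between Dlk1 and Mirg): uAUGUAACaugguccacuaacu
mmu-miR-411-3p (between Dlk1 and Mirg): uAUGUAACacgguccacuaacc

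Promoter windows of 300 bases, 250 before and 50 after a start, were taken from RefSeq (GRCm38.p6) for 26 of the 33 genes, 41 windows in all. Peg3 and Usp29 are read in opposite directions from starts 164 bases apart, so their windows share 263 bases, in capitals below, read 5′ to 3′ on each gene's own strand. They are shown because these neighbours, which lie head to head, differed in their response. Meg3 is shown with its hexamer GCGGCA in capitals, the complement of TGCCGC, which ZFP57, a zinc finger protein that maintains imprints, is known to bind when methylated.
Peg3 (chr7:6730370-6730669, minus strand): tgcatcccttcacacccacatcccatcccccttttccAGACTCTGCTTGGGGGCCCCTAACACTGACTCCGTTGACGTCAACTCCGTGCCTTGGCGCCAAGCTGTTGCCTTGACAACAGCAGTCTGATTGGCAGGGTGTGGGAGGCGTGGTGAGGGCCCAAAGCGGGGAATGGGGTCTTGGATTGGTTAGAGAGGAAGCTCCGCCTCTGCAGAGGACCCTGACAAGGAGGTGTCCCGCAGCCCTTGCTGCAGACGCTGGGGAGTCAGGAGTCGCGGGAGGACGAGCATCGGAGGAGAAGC
Usp29 (chr7:6730333-6730632, plus strand): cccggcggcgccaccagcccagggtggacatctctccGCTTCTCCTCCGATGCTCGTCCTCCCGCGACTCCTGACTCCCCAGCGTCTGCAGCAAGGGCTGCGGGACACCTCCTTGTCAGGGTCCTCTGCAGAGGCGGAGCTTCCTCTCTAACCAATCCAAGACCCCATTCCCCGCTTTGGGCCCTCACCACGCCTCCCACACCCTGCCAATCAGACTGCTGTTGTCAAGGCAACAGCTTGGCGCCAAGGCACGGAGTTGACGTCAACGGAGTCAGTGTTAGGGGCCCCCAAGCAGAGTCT
Meg3 (chr12:109540746-109541045, plus strand): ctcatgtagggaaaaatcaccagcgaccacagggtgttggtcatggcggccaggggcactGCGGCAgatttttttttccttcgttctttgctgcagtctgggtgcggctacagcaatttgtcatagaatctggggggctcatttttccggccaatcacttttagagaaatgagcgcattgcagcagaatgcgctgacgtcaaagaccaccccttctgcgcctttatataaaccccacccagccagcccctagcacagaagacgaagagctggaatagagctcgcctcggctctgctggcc

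The hexamer TGCCGC, on either strand, was in 10 of the 41 windows, or 24.4%, and in 11.6% of all 32851 windows of the table. The windows of the imprinted genes had a median ratio of observed to expected CpG of 0.584, against 0.384 over all windows. Their median GC content was 55.7%, against 52.7%. The TCF/LEF motif, searched as CTTTGAT or CTTTGAA on either strand, was in 1 window, that of Peg12, or 2.44% of the windows, and in 8.65% of all windows. Windows of 1 gene can overlap, and Snrpn and Snurf share an identical window. Windows of H19, Nespas, Peg10, Rtl1, Cdkn1c and Sgce were not found in the table. Impact was left out of the imprinted windows, so the shares and medians above do not cover it. These are matches of letters and not binding sites.

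Total counts ran from 18082332 to 27280761 in APC-mutant libraries and from 15740857 to 25414443 in wildtype libraries. Marker genes of other cell types moved with the genotype. The summed level of 10 endocrine markers was 160.8 to 1458 CPM in APC-mutant libraries and 58650 to 93968 CPM in wildtype libraries, and all 10 were called lower. The 6 pituitary stem cell markers, of which 2 were called higher and 2 lower, summed to 216 to 354 CPM in APC-mutant and 565 to 865 CPM in wildtype libraries. The lower sum was that of Aldh1a2, at 56.4 to 94.1 CPM in APC-mutant and 395.6 to 729.8 CPM in wildtype libraries, and the other 5 markers summed to 159.9 to 259.7 CPM in APC-mutant and 119.9 to 169 CPM in wildtype libraries. Endothelial markers summed to 3035 to 4482 CPM in APC-mutant libraries and 7.33 to 59.0 CPM in wildtype libraries. Mesenchymal and pericyte markers summed to 609.9 to 2099 CPM in APC-mutant and 88.3 to 179 CPM in wildtype libraries. Macrophage markers reached 65.1 to 612 CPM in APC-mutant and 10.2 to 30.0 CPM in wildtype libraries, and erythroid markers 1609 to 3154 CPM in APC-mutant and 1.10 to 29.5 CPM in wildtype libraries. All 6 endothelial, 6 mesenchymal, 5 macrophage and 3 erythroid markers were called higher, and no marker of any list was at 0 in all libraries of a genotype. The part of these cell types in the results on imprinted genes was not tested.

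Of the 33 imprinted genes, 26 were called, or 78.8%, where 59.2% of all tested genes were called. In APC-mutant libraries 7 were higher, or 21.2%, against 30.7% of all tested genes. Lower were 19, or 57.6%, against 28.5% of all tested genes. The genes called higher were H19, Igf2, Grb10, Asb4, Airn, Igf2r and Sgce. The 19 called lower included Nnat, the genes from Dlk1 to Mirg, the Peg3 neighbours, Gnas with Nespas, the Snrpn and Ndn neighbours and Cdkn1c. The median log2 fold change, APC-mutant minus wildtype throughout, was -1.03 over the 33 genes and 0.02 over all tested genes. Among the called genes, 22 changed by at least 1 on the log2 scale. Libraries of the genotypes did not overlap for 7 genes that were higher and 15 that were lower, against 23.0% and 20.0% of all tested genes.

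**Figure D1:**
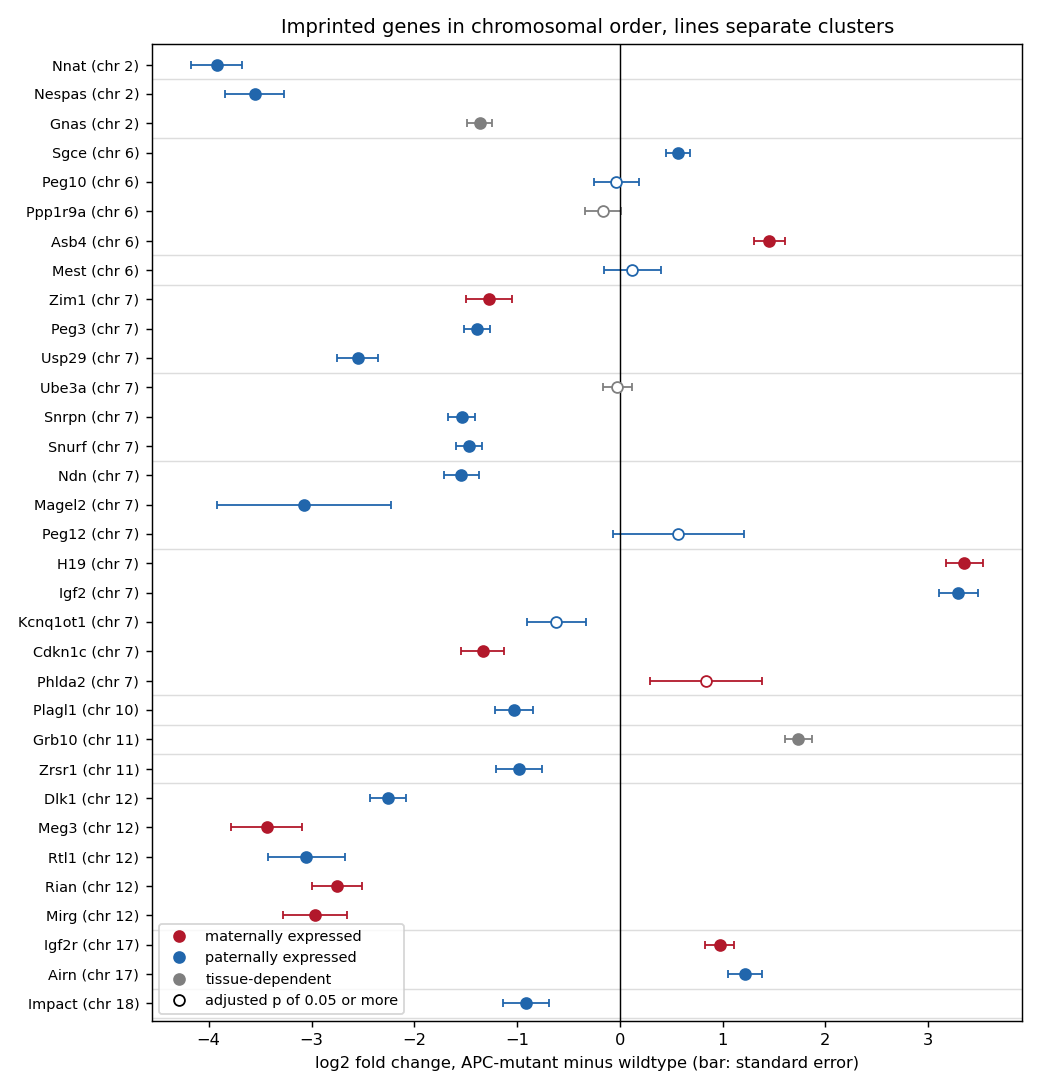
Log2 fold change, APC-mutant minus wildtype, of the 33 imprinted genes in chromosomal order, with bars for the standard error and lines between clusters. The genes run from -3.92 (Nnat) to 3.35 (H19), and the genes of the chromosome 12 cluster all lie below 0.

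The pair with the largest increase was H19 and Igf2, neighbours on distal chromosome 7 that share enhancers and a control region. Igf2 encodes insulin-like growth factor 2, a fetal growth factor, and H19 is a long non-coding RNA made from the maternal chromosome. Igf2 (ENSMUSG00000048583.17, chromosome 7, 142204503 to 142220553) had 612, 481, 574, 497 and 584 CPM in the APC-mutant libraries, against a lowest of 39.3, a median of 52 and a highest of 83.6 CPM in the wildtype libraries. Every APC-mutant library lay above every wildtype library, by several fold. Igf2 averaged 549 ± 57.5 CPM in APC-mutant and 56 ± 17.1 CPM in wildtype libraries (SD, n = 5 and 6), a log2 fold change of 3.29 ± 0.19 (SE, adjusted p = 4.67e-09). An overlap with the predicted gene Gm49394 on the same strand covers 62.8% of its exonic bases, and read pairs there were counted for both. H19 (ENSMUSG00000000031.19, chromosome 7, 142129262 to 142131917) had 405, 205, 254, 302 and 339 CPM in the APC-mutant libraries, against a lowest of 20.6, a median of 30.6 and a highest of 34.6 CPM in the wildtype libraries. The wildtype libraries were close together and the APC-mutant libraries more spread, with no overlap. Its log2 fold change was 3.35 ± 0.18 (SE, adjusted p = 2.38e-09), the largest among the 33 genes. The log2 ratio of H19 to Igf2 counts within a library averaged -0.90 ± 0.29 in APC-mutant and -0.89 ± 0.40 in wildtype libraries, and the difference of -0.01 had p = 0.983, adjusted p = 0.983 (exact permutation test, two-sided, over the 15 neighbour pairs compared). Between genotypes both rose together with the endothelial markers (3035 to 4482 CPM in APC-mutant and 7.33 to 59.0 CPM in wildtype libraries) and the mesenchymal markers (609.9 to 2099 CPM in APC-mutant and 88.3 to 179 CPM in wildtype libraries). Macrophage and erythroid markers rose too, and the part of these markers was not tested. Among APC-mutant libraries both genes were highest in replicate 1, which had the lowest endothelial (3035 CPM) and highest erythroid sum (3154 CPM). Both were lowest in replicate 2, which had the highest mesenchymal (2099 CPM) and macrophage sums (612 CPM).

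Further along the same cluster, under a separate control region, the direction differed. Cdkn1c encodes p57, an inhibitor of cyclin-dependent kinases that is expressed from the maternal chromosome. Cdkn1c (ENSMUSG00000037664.14, chromosome 7, 143012076 to 143014787) had 415, 442, 341, 475 and 419.7 CPM in the APC-mutant libraries, against a lowest of 630.1, a median of 1029 and a highest of 1517 CPM in the wildtype libraries. The groups did not overlap, and wildtype replicates 1 and 5 were the highest. It had a log2 fold change of -1.34 ± 0.21 (SE, adjusted p = 6.76e-05), and the antisense gene Gm44732 covers 30.7% of its exonic bases. Kcnq1ot1 (ENSMUSG00000101609.4, chromosome 7, 142731562 to 142850286), the paternal long non-coding RNA that silences Cdkn1c and Phlda2 in cis, had 73.6, 37.7, 57.9, 43 and 47.4 CPM in the APC-mutant libraries, against a lowest of 42.5, a median of 68.7 and a highest of 158 CPM in the wildtype libraries. These groups overlapped, and the log2 fold change of -0.62 ± 0.29 (SE, adjusted p = 0.0803) did not pass the threshold. It passed without APC-mutant replicate 1 (-0.77, adjusted p = 0.0443), without wildtype replicate 2 (-0.75, adjusted p = 0.0282), against the ROSAE libraries alone (-1.20, adjusted p = 0.00678) and in DESeq2 (-0.64, adjusted p = 0.0423). It was smaller without wildtype replicate 5 (-0.33, adjusted p = 0.190), without wildtype replicates 1 and 5 (-0.26, adjusted p = 0.332) and against the ROSAJC libraries alone (-0.23, adjusted p = 0.384). Kcnq1ot1 lies within the gene body of Kcnq1, which was called higher in APC-mutant libraries (log2 fold change 2.93). Counting did not use strand, so unspliced Kcnq1 fragments could be counted for Kcnq1ot1. Phlda2 (ENSMUSG00000010760.6, chromosome 7, 143055282 to 143056887), which limits placental growth, was near the detection limit, at 1.88 ± 0.524 CPM in APC-mutant and 1.04 ± 1.04 CPM in wildtype libraries (SD, n = 5 and 6). The log2 fold change reached 0.84 ± 0.54 (SE, adjusted p = 0.202), and 1.53 without wildtype replicate 1 (adjusted p = 0.00973). The ratio Phlda2 over Cdkn1c was higher in APC-mutant libraries by 2.60 on the log2 scale (p = 0.00433, adjusted p = 0.0216, exact permutation test, two-sided). Without APC-mutant replicate 4 that difference was 2.41 and no longer passed (adjusted p = 0.0714, exact permutation test). With a library left out, that test has fewer ways to split the rest and is coarser.

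In the cluster on distal chromosome 12 every member was lower in APC-mutant libraries. Dlk1 encodes a membrane protein with EGF repeats that restrains differentiation and marks many endocrine and progenitor cells. It is expressed from the paternal chromosome, while the long non-coding RNAs Meg3, Rian and Mirg come from the maternal one. Dlk1 (ENSMUSG00000040856.18, chromosome 12, 109418749 to 109429262) had 859.9, 663, 566, 902 and 704 CPM in the APC-mutant libraries, against a lowest of 2684, a median of 3315 and a highest of 4441 CPM in the wildtype libraries. The lowest wildtype library was well above the highest APC-mutant library. The group means were 739 ± 139.7 CPM in APC-mutant and 3533 ± 740 CPM in wildtype libraries (SD, n = 5 and 6), with a log2 fold change of -2.26 ± 0.18 (SE, adjusted p = 8.17e-08).

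Meg3, a long non-coding RNA known to limit growth of human pituitary tumour cells, fell the most of the 5. Meg3 (ENSMUSG00000021268.19, chromosome 12, 109506879 to 109538165) had 80.8, 86.5, 86.5, 35.7 and 57.7 CPM in the APC-mutant libraries, against a lowest of 322, a median of 741 and a highest of 1170.3 CPM in the wildtype libraries. The wildtype libraries varied among themselves, with a mean of 575 CPM in the 4 ROSAJC libraries and 1104 CPM in the pair of ROSAE libraries, yet none came near the APC-mutant libraries. Its log2 fold change was -3.44 ± 0.35 (SE, adjusted p = 1.08e-06). Rtl1 (ENSMUSG00000085925.4, chromosome 12, 109555627 to 109566764), a paternally expressed gene derived from a retrotransposon, had 2.13, 2.09, 2.16, 0.954 and 0.71 CPM in the APC-mutant libraries, against a lowest of 7.16, a median of 14.2 and a highest of 21.2 CPM in the wildtype libraries. Its levels were low in both groups and did not overlap, with a log2 fold change of -3.05 ± 0.38 (SE, adjusted p = 7.8e-06). MicroRNAs lie on the strand opposite to Rtl1 and counting did not use strand. Transcripts of that strand could therefore be counted for Rtl1. Mirg (ENSMUSG00000097391.9, chromosome 12, 109696198 to 109715894), the host of the microRNAs at the far end, had 3.46, 2.29, 2.32, 1.49 and 2.13 CPM in the APC-mutant libraries, against a lowest of 7.69, a median of 19.8 and a highest of 25.4 CPM in the wildtype libraries. Again the groups were apart, with a log2 fold change of -2.97 ± 0.31 (SE, adjusted p = 1.69e-06). Rian (ENSMUSG00000097451.12, chromosome 12, 109570242 to 109628150), a host of small nucleolar RNAs, averaged 36.2 ± 10.9 CPM in APC-mutant and 244 ± 61.9 CPM in wildtype libraries (SD, n = 5 and 6), a log2 fold change of -2.76 ± 0.24 (SE, adjusted p = 3.09e-07).

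The proportions of these genes were also compared within libraries. Rian per count of Meg3 was higher in APC-mutant libraries by 0.62 on the log2 scale (p = 0.013, adjusted p = 0.0487, exact permutation test, two-sided). That call was lost when any library other than wildtype replicate 3 was left out, with differences of 0.54 to 0.73 over all 11 omissions. Each omission also left fewer ways to split the libraries, so the test itself became coarser. Mirg per count of Meg3 differed by 0.47 (p = 0.0498, adjusted p = 0.118, exact permutation test). Dlk1 per count of Meg3 averaged 3.47 ± 0.76 in APC-mutant and 2.34 ± 0.88 in wildtype libraries, a difference of 1.13 that did not pass (p = 0.0563, adjusted p = 0.118, exact permutation test). Rtl1 per count of Dlk1 differed by -0.82 (p = 0.143, adjusted p = 0.237, exact permutation test). The 5 genes of the cluster fell between genotypes together with the summed endocrine markers, whose part was not tested. That sum was 160.8 to 1458 CPM in APC-mutant and 58650 to 93968 CPM in wildtype libraries. Among APC-mutant libraries it was lowest in replicate 1 and highest in replicate 5. Meg3, Rtl1, Rian and Mirg were lower in replicate 5 than in replicate 1, and Dlk1 was higher. Across the APC-mutant libraries Rian and Mirg fell in the order in which the sum rose.

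**Figure D2:**
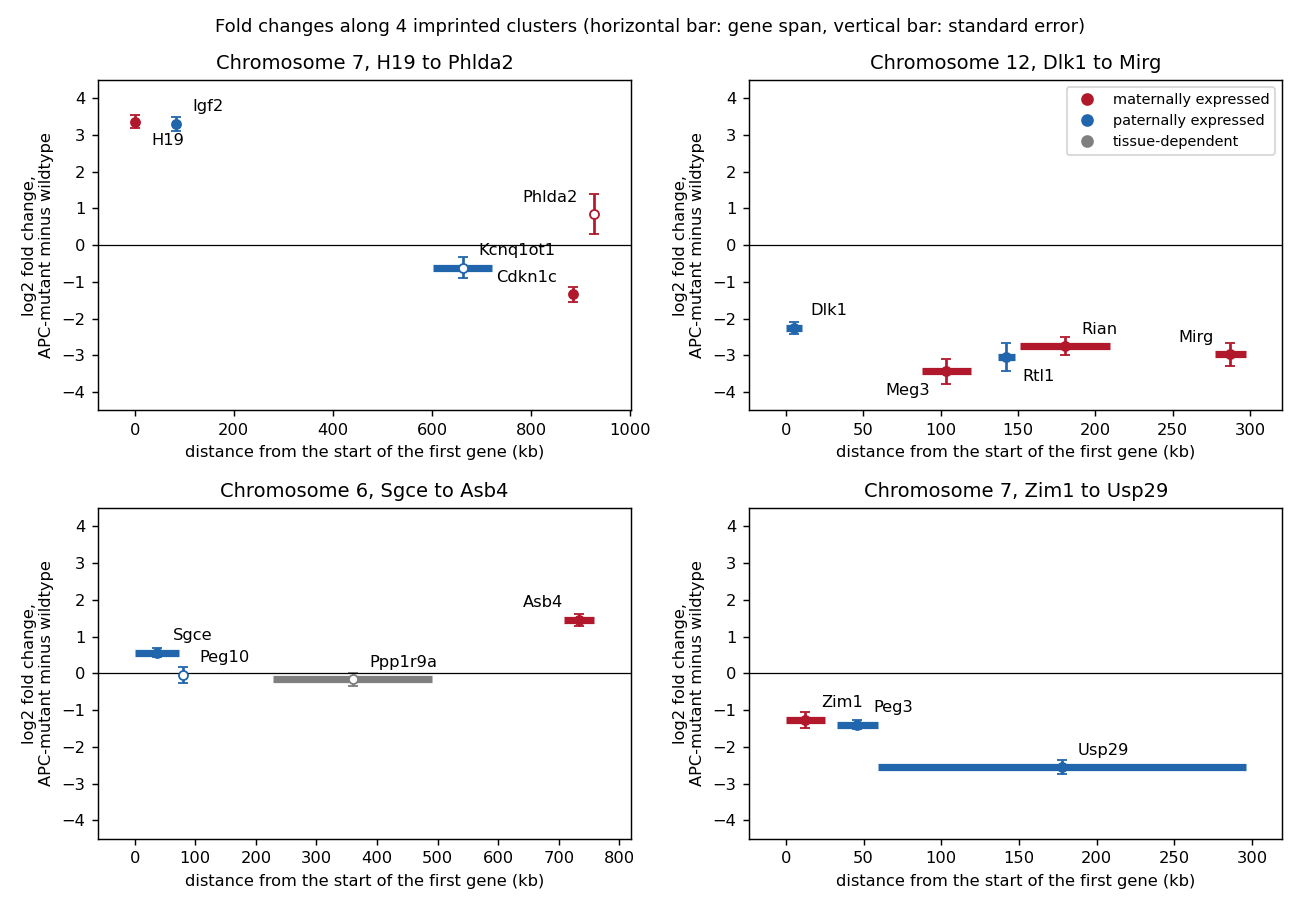
Log2 fold changes, APC-mutant minus wildtype, of genes along 4 clusters, against the distance from the start of the first gene in kb. Horizontal bars span the gene, vertical bars give the standard error, and open points were not called; the chromosome 7 panel holds H19 and Igf2 above 3 and Cdkn1c at -1.34.

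The most abundant imprinted transcript per kb of exon was Nnat, which encodes neuronatin, a small proteolipid of the endoplasmic reticulum in neuronal and endocrine cells, made from the paternal chromosome. Nnat (ENSMUSG00000067786.17, chromosome 2, 157401998 to 157404442) had 1392, 1442, 1339, 2295 and 1388 CPM in the APC-mutant libraries, against a lowest of 15312, a median of 24612 and a highest of 31551 CPM in the wildtype libraries. Every APC-mutant library was several fold below the lowest wildtype library, and APC-mutant replicate 5 was the highest of its group. The fall of 3.92 ± 0.24 on the log2 scale was the largest of the 33 genes (SE, adjusted p = 9.34e-09). Nnat took 0.132 to 0.221% of all counts in APC-mutant libraries and 1.61 to 3.28% in wildtype libraries.

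Gnas, elsewhere on the same chromosome, encodes the stimulatory G protein alpha subunit that couples the receptors for hypothalamic releasing hormones to cyclic AMP. It is transcribed from the maternal copy in some tissues, the pituitary among them, and from both in others. Gnas (ENSMUSG00000027523.21, chromosome 2, 174126113 to 174188537) had 3989, 3748, 3462, 4877 and 3873 CPM in the APC-mutant libraries, against a lowest of 9087, a median of 10292 and a highest of 11409.5 CPM in the wildtype libraries. Both groups were tight and apart, with a log2 fold change of -1.36 ± 0.12 (SE, adjusted p = 3.39e-07). Nespas (ENSMUSG00000086537.9, chromosome 2, 174123024 to 174137229), the paternal antisense RNA of the locus, had 90.1, 42.8, 66.2, 24.9 and 50.8 CPM in the APC-mutant libraries, against a lowest of 487, a median of 637 and a highest of 822 CPM in the wildtype libraries. Again no libraries overlapped, and the log2 fold change came to -3.55 ± 0.29 (SE, adjusted p = 1.16e-07). Gnas exons on the other strand cover 31.4% of its exonic bases, and counting did not use strand, so fragments of both are mixed there. Per count of Gnas, Nespas was lower in APC-mutant libraries by 2.29 on the log2 scale, at -6.30 ± 0.84 in APC-mutant and -4.01 ± 0.23 in wildtype libraries (p = 0.00216, adjusted p = 0.0162, exact permutation test, two-sided). That p is the smallest the 462 splits can give. Between genotypes Nnat, Gnas and Nespas fell together with the summed endocrine markers, whose part was not tested. Among APC-mutant libraries that sum was lowest in replicate 1 (160.8 CPM) and highest in replicate 5 (1458 CPM). Nespas was lower in replicate 5 than in replicate 1, and Nnat and Gnas were higher.

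In the Peg3 cluster on proximal chromosome 7 all 3 listed genes fell, by unequal amounts. Peg3, a paternally expressed zinc finger protein, had 542, 434, 491, 379.9 and 460 CPM in the APC-mutant libraries, against a lowest of 936, a median of 1242 and a highest of 1419 CPM in the wildtype libraries (ENSMUSG00000002265.18, chromosome 7, 6706891 to 6733430). Its groups did not overlap, with a log2 fold change of -1.39 ± 0.13 (SE, adjusted p = 4.81e-07). Usp29 (ENSMUSG00000051527.12, chromosome 7, 6733577 to 6970218), a gene of the deubiquitinase family whose promoter window shares most of its bases with that of Peg3, had 21.3, 15.6, 15.7, 10.1 and 12.1 CPM in the APC-mutant libraries, against a lowest of 60.2, a median of 87.8 and a highest of 109 CPM in the wildtype libraries. It fell further, with a log2 fold change of -2.55 ± 0.20 (SE, adjusted p = 8.38e-08), and 14.3% of its exonic bases overlap Zim3. Per count of Peg3, Usp29 was at -4.98 ± 0.26 in APC-mutant and -3.80 ± 0.17 in wildtype libraries on the log2 scale, a difference of -1.18 (p = 0.00216, adjusted p = 0.0162, exact permutation test, two-sided). Zim1 (ENSMUSG00000002266.18, chromosome 7, 6674268 to 6699449), a maternally expressed zinc finger gene, had 33.8, 27.4, 31.4, 18.8 and 23.1 CPM in the APC-mutant libraries, against a lowest of 40.4, a median of 71.4 and a highest of 84.4 CPM in the wildtype libraries. It too had no overlap, with a log2 fold change of -1.27 ± 0.22 (SE, adjusted p = 0.000213), and its ratio to Peg3 differed by 0.15 (p = 0.396, adjusted p = 0.495, exact permutation test).

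The region on chromosome 7 that matches the human Prader-Willi and Angelman domain was split by the 2 Mb rule into Ube3a, Snrpn and Snurf on one side and Ndn, Magel2 and Peg12 on the other. Snrpn encodes a spliceosomal protein of neurons and Snurf is a reading frame at the start of the same transcript. Snrpn (ENSMUSG00000102252.6, chromosome 7, 59632243 to 59789967) had 66.9, 62.4, 58.2, 64 and 71.1 CPM in the APC-mutant libraries, against a lowest of 129, a median of 191 and a highest of 225 CPM in the wildtype libraries. The groups were apart although wildtype replicate 6 was low, and the log2 fold change came to -1.54 ± 0.13 (SE, adjusted p = 1.97e-07). Of its exonic bases, 34.1% overlap another gene, mostly the predicted gene Gm38393. Snurf (ENSMUSG00000102627.2, chromosome 7, 59645197 to 59654797) lies wholly inside Snrpn, so its counts are largely the same fragments, and it had 18.7, 17.2, 17.3, 16.7 and 19.2 CPM in the APC-mutant libraries, against a lowest of 35.1, a median of 50.7 and a highest of 56.2 CPM in the wildtype libraries. Its log2 fold change of -1.47 ± 0.13 (SE, adjusted p = 2.54e-07) is therefore not an independent observation. Ube3a (ENSMUSG00000025326.13, chromosome 7, 58878498 to 58961284), the ubiquitin ligase that is imprinted in neurons and expressed from both copies elsewhere, averaged 151 ± 28.7 CPM in APC-mutant and 154 ± 25.5 CPM in wildtype libraries (SD, n = 5 and 6). It had a log2 fold change of -0.02 ± 0.14 (SE, adjusted p = 0.891), with 27.3% of exonic bases shared with other genes.

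Ndn (ENSMUSG00000033585.6, chromosome 7, 61996317 to 62000010), which encodes necdin, a MAGE family protein of postmitotic neurons, had 83.5, 136, 81.1, 76.9 and 118 CPM in the APC-mutant libraries, against a lowest of 246, a median of 278 and a highest of 379 CPM in the wildtype libraries. It fell with no overlap, by 1.54 ± 0.17 on the log2 scale (SE, adjusted p = 3.1e-06), close to Snrpn, and the ratio of the pair differed by -0.04 (p = 0.814, adjusted p = 0.872, exact permutation test). Magel2 (ENSMUSG00000056972.7, chromosome 7, 62026758 to 62031388), another MAGE family gene, had 0.639, 0.458, 0.387, 0.114 and 0.254 CPM in the APC-mutant libraries, against a lowest of 0.303, a median of 1.35 and a highest of 10.1 CPM in the wildtype libraries. The groups overlapped, and wildtype replicates 1 and 5 held the highest levels, at 4.91 and 10.1 CPM. The log2 fold change reached -3.07 ± 0.84 (SE, adjusted p = 0.006); without wildtype replicate 5 it was -2.24, without replicates 1 and 5 of the wildtype it was -1.33 and did not pass (adjusted p = 0.0676), and in limma voom it was -2.25 (adjusted p = 0.0753). Peg12 (ENSMUSG00000070526.3, chromosome 7, 62111619 to 62114258), a gene of the family that binds the kinase GSK3, averaged 1.59 ± 0.543 CPM in APC-mutant and 1.06 ± 1.12 CPM in wildtype libraries (SD, n = 5 and 6), with a log2 fold change of 0.57 ± 0.64 (SE, adjusted p = 0.467).

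On proximal chromosome 6 the called genes were higher in APC-mutant libraries. Asb4 (ENSMUSG00000042607.16, chromosome 6, 5383386 to 5433022), which encodes an ankyrin repeat protein with a SOCS box and is expressed from the maternal chromosome, had 123, 161, 174, 194 and 159.6 CPM in the APC-mutant libraries, against a lowest of 42.8, a median of 59.5 and a highest of 73.8 CPM in the wildtype libraries. No library overlapped, and the log2 fold change came to 1.45 ± 0.15 (SE, adjusted p = 1.51e-06). Sgce (ENSMUSG00000004631.16, chromosome 6, 4674350 to 4747207), which encodes epsilon-sarcoglycan and is paternally expressed, had 133, 135, 119, 132 and 144 CPM in the APC-mutant libraries, against a lowest of 71.4, a median of 90.4 and a highest of 107 CPM in the wildtype libraries. The groups lay close but apart, with a log2 fold change of 0.56 ± 0.12 (SE, adjusted p = 0.000802). Peg10 (ENSMUSG00000092035.9, chromosome 6, 4747306 to 4760517), a retrotransposon-derived gene that starts beside Sgce in the opposite direction, averaged 25.7 ± 7.86 CPM in APC-mutant and 26.3 ± 6.39 CPM in wildtype libraries (SD, n = 5 and 6), a log2 fold change of -0.03 ± 0.22 (SE, adjusted p = 0.907). Per count of Peg10, Sgce differed by 0.62 on the log2 scale (p = 0.0628, adjusted p = 0.118, exact permutation test). Ppp1r9a (ENSMUSG00000032827.16, chromosome 6, 4902917 to 5165661), which encodes the actin-binding protein neurabin, had a log2 fold change of -0.16 ± 0.17 (SE, adjusted p = 0.434).

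Igf2r and Airn, which lie together on chromosome 17, and Grb10 were higher in APC-mutant libraries. Igf2r encodes the receptor that clears IGF2 by carrying it to lysosomes, and it is expressed from the maternal chromosome while its antisense RNA Airn comes from the paternal one. Igf2r (ENSMUSG00000023830.15, chromosome 17, 12901293 to 12988551) had 88.4, 69.1, 76.4, 69 and 70.7 CPM in the APC-mutant libraries, against a lowest of 25.6, a median of 39.9 and a highest of 45.9 CPM in the wildtype libraries. The groups were apart, and its log2 fold change was 0.97 ± 0.14 (SE, adjusted p = 4.41e-05). Airn (ENSMUSG00000078247.7, chromosome 17, 12960198 to 13079023) had 41.2, 39.7, 41.4, 28.7 and 35.9 CPM in the APC-mutant libraries, against a lowest of 12.8, a median of 14.6 and a highest of 20.9 CPM in the wildtype libraries. It also showed no overlap, with a log2 fold change of 1.22 ± 0.17 (SE, adjusted p = 2.15e-05). The exons of the pair do not overlap, but their gene bodies do, so unspliced Igf2r fragments could be counted for Airn. Their ratio differed by -0.24 on the log2 scale (p = 0.24, adjusted p = 0.328, exact permutation test). Grb10 (ENSMUSG00000020176.18, chromosome 11, 11880508 to 11988683) encodes an adaptor that dampens insulin and IGF receptor signalling, and which parental copy is used depends on the tissue. It had 348, 312, 316, 307 and 283 CPM in the APC-mutant libraries, against a lowest of 70, a median of 90.7 and a highest of 117 CPM in the wildtype libraries. Every APC-mutant library was above every wildtype library, with a log2 fold change of 1.74 ± 0.13 (SE, adjusted p = 7.42e-08). Between genotypes Igf2r, Airn, Grb10, Asb4 and Sgce rose together with the endothelial, mesenchymal, macrophage and erythroid marker sums, whose part was not tested.

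**Figure D3:**
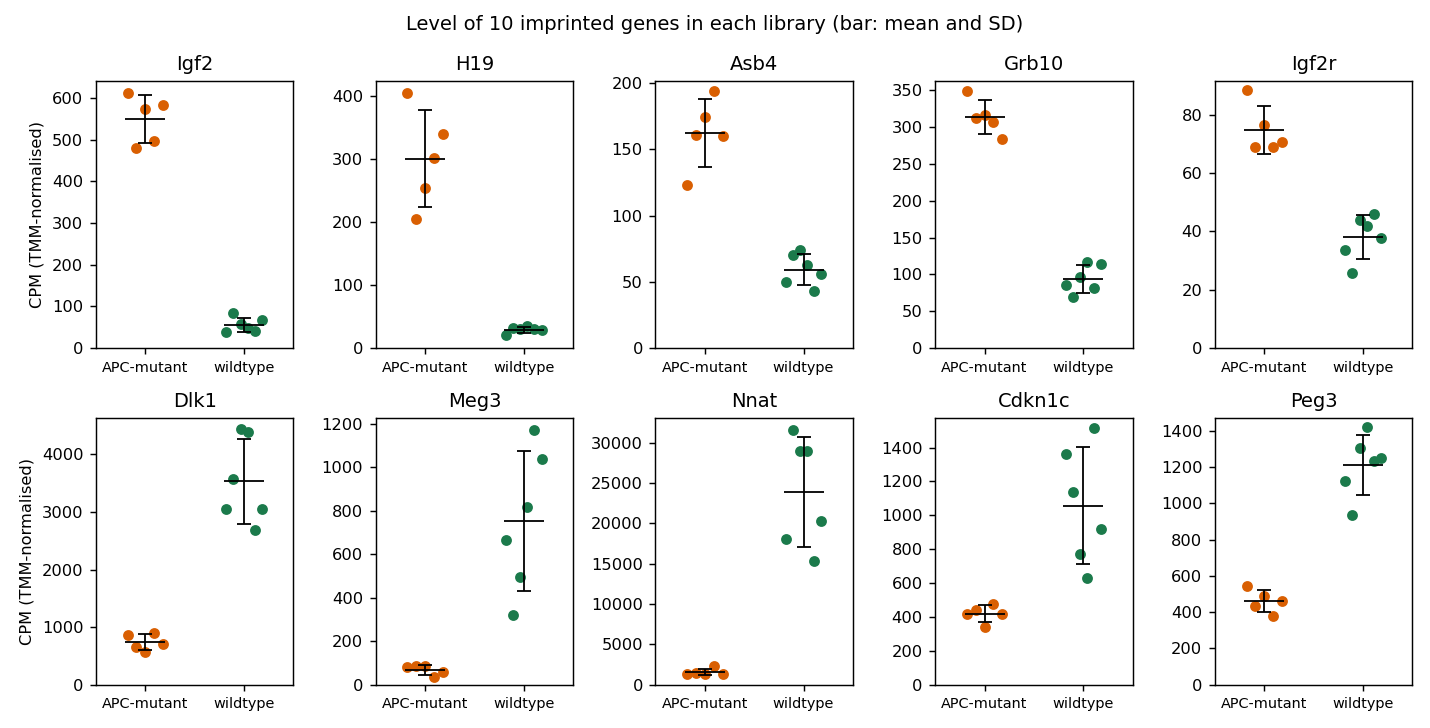
Level in CPM of 10 imprinted genes in each of the 5 APC-mutant and 6 wildtype libraries, with the mean and SD as bars. Igf2, H19, Asb4, Grb10 and Igf2r (upper row) are higher in all APC-mutant libraries, and Dlk1, Meg3, Nnat, Cdkn1c and Peg3 (lower row) are higher in all wildtype libraries.

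Of the remaining single genes, 3 fell and Mest was not called. Plagl1 (ENSMUSG00000019817.19, chromosome 10, 12936248 to 13007438), a paternally expressed zinc finger transcription factor that can activate other imprinted genes, had 135, 149.6, 128, 95.2 and 142 CPM in the APC-mutant libraries, against a lowest of 142, a median of 286 and a highest of 321 CPM in the wildtype libraries. Wildtype replicate 2, at 142 CPM, lay among the APC-mutant libraries, and the log2 fold change came to -1.03 ± 0.19 (SE, adjusted p = 0.000278). Zrsr1 (ENSMUSG00000044068.9, chromosome 11, 22923215 to 22926496), a retrogene related to a splicing factor, had 4.21, 3.26, 3.48, 2.78 and 2.59 CPM in the APC-mutant libraries, against a lowest of 4.14, a median of 7.02 and a highest of 7.63 CPM in the wildtype libraries. These low levels overlapped at 1 wildtype library, with a log2 fold change of -0.98 ± 0.22 (SE, adjusted p = 0.0016). Impact (ENSMUSG00000024423.7, chromosome 18, 13088909 to 13126007), a regulator of translation through the kinase GCN2, had 29.4, 44.1, 43.4, 18.6 and 34.8 CPM in the APC-mutant libraries, against a lowest of 43.6, a median of 64.5 and a highest of 81.2 CPM in the wildtype libraries. Like the called genes of the Peg3, Snrpn and Ndn clusters and Cdkn1c, these 3 genes fell between genotypes together with the summed endocrine markers. Among APC-mutant libraries that sum was lowest in replicate 1 (160.8 CPM) and highest in replicate 5 (1458 CPM). Of all these genes only Cdkn1c was higher in replicate 5 than in replicate 1, and the others were lower. The part of those markers was not tested. For Impact the groups overlapped, the log2 fold change came to -0.91 ± 0.22 (SE, adjusted p = 0.003), and against the ROSAE libraries alone it was -0.76 and did not pass (adjusted p = 0.0593).

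Mest (ENSMUSG00000051855.16, chromosome 6, 30723546 to 30748464), a paternally expressed gene of the alpha/beta hydrolase fold, held rank 2 among the 33 genes per kb of exon in APC-mutant libraries and rank 3 in wildtype libraries. It had 2919, 3161, 2934, 3075 and 2722 CPM in the APC-mutant libraries, against a lowest of 1461, a median of 2128 and a highest of 4619 CPM in the wildtype libraries. Wildtype replicates 1 and 5 held 4619 and 4324 CPM, above every APC-mutant library, and the other 4 held 1461 to 2300 CPM, below every one. The log2 fold change came to 0.12 ± 0.28 (SE, adjusted p = 0.726) over all libraries and 0.65 without wildtype replicates 1 and 5 (adjusted p = 0.00115). An overlap with Copg2 covers 23.1% of its exonic bases.

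The same pair of wildtype libraries stood apart for markers of the posterior lobe and glia, which summed to 181.9 and 226.7 CPM there, 4.62 to 37.2 CPM in the other wildtype libraries, and 25.9 to 65.7 CPM in APC-mutant libraries. Wildtype replicates 1 and 5 were the highest wildtype libraries for 6 of the 33 imprinted genes, or 18.2%, namely Ppp1r9a, Mest, Magel2, Peg12, Cdkn1c and Phlda2, against 9.46% of all tested genes. Without this pair, 10 of the imprinted genes were called higher and 18 lower. Added to the higher genes were Mest, Peg12 (1.70, adjusted p = 0.0254) and Phlda2 (1.74, adjusted p = 0.00697), and Magel2 left the lower ones. The pair comprises a ROSAJC and a ROSAE library, and its part in these results beyond leaving it out was not tested.

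**Figure D4:**
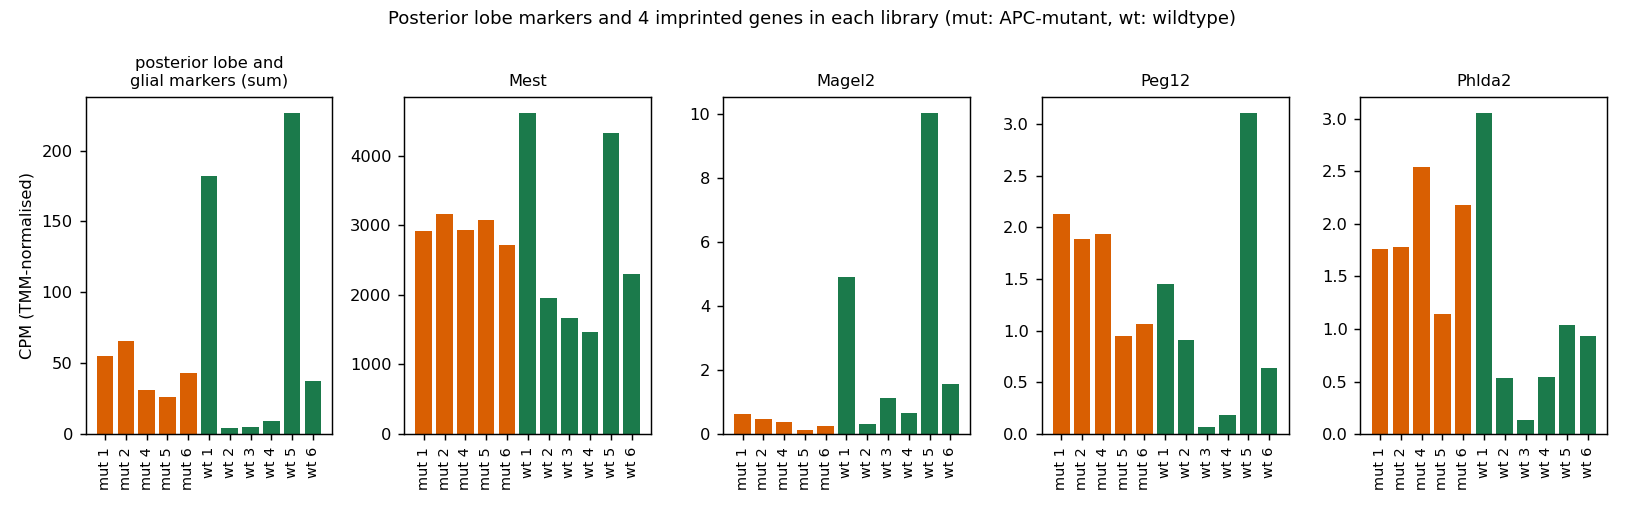
Summed level of the posterior lobe and glial markers and levels of Mest, Magel2, Peg12 and Phlda2 in CPM, 1 bar per library, APC-mutant (mut) left of wildtype (wt). Wildtype replicates 1 and 5 hold the highest marker sums, 181.9 and 226.7 CPM, and the highest Mest and Magel2 levels.

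To compare maternally with paternally expressed genes, each gene was given a class from textbook knowledge. Of the 9 maternally expressed genes, 3 were higher and 5 lower in APC-mutant libraries, with a median log2 fold change of -1.27. Of the 20 paternally expressed genes, 3 were higher and 13 lower, with a median of -1.21. The 4 genes whose parental copy depends on the tissue, Gnas, Grb10, Ube3a and Ppp1r9a, had 1 higher and 1 lower, with a median of -0.09. Fold changes within a class ran from -3.44 to 3.35 for maternal and from -3.92 to 3.29 for paternal genes, and the difference between the medians was not tested. The median log2 level of a class had an SD between libraries of a genotype of 0.39 for maternal and 0.27 for paternal genes. That SD is not an error of the median fold change. The maternal median rested on few genes, since counting the tissue-dependent genes as maternal moved it to -0.16 and leaving out genes that overlap another gene moved it to -0.22. Among the 7 non-coding genes 2 were higher and 4 lower, and among the 26 coding genes 5 were higher and 15 lower.

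Directions were also counted by cluster. In 8 clusters at least 2 genes were called, and in 7 of them all called genes had the same direction. The exception was the cluster of H19 and Igf2, higher, with Cdkn1c, lower. Of the 7, the agreement of Snrpn with Snurf was fixed by their shared fragments, and that of Ndn with Magel2 rests on a call that was lost in limma voom and without wildtype replicates 1 and 5. No such count was made for other neighbouring genes, and 19 of the 26 called genes were lower. Further imprinted genes outside the 33 lie within 2 Mb of these clusters. In the cluster of H19, Igf2 and Cdkn1c, Kcnq1 (log2 fold change 2.93) and Cd81 (1.64) were called higher and Tssc4 (-0.38) lower. For the other clusters they are given by direction. Called against the direction of the listed genes were Calcr near Sgce (log2 fold change -3.89), Slc22a2 near Igf2r (-5.42) and Atp10a near Ube3a (1.34). Called with it were Tfpi2 (6.94), Pon2 (2.17) and Casd1 (0.67) near Sgce, Zim3 (-3.20) near Usp29 and Dio3 (-2.61) near Mirg. Exons of Zim3 and Usp29 overlap and counting did not use strand. Usp29 fragments could thus be counted for Zim3, whose agreement may not be independent. In 5 clusters a maternally and a paternally expressed gene were both called, and in 4 of these they moved the same way, as did Meg3 with Dlk1, Zim1 with Peg3, Asb4 with Sgce and Igf2r with Airn. Unspliced Igf2r fragments could be counted for Airn, so the agreement of that pair may not be independent.

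**Figure D5:**
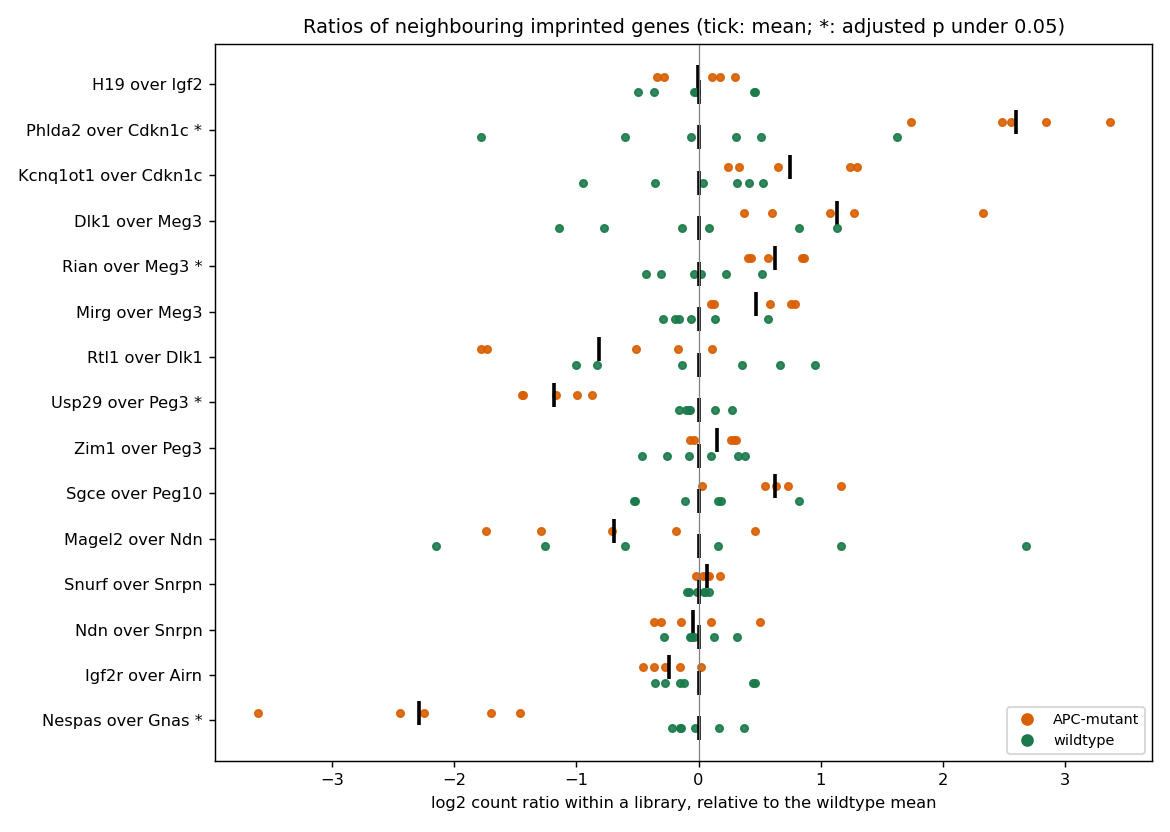
Log2 ratio of the counts of 15 pairs of neighbouring imprinted genes within each library, relative to the wildtype mean, with APC-mutant libraries above wildtype libraries and ticks for the means. Nespas over Gnas and Usp29 over Peg3 lie lower in all APC-mutant libraries, while H19 over Igf2 is centred near 0 in both genotypes.

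Of the other ratios within libraries, Kcnq1ot1 per count of Cdkn1c differed by 0.75 (p = 0.0476, adjusted p = 0.118, exact permutation test), Magel2 per count of Ndn by -0.69 (p = 0.448, adjusted p = 0.517, exact permutation test) and Snurf per count of Snrpn by 0.07 (p = 0.158, adjusted p = 0.237, exact permutation test). In all, 4 of the 15 pairs passed the adjusted threshold.

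The imprinted genes together took 1.14 to 1.36% of all counts in APC-mutant libraries and 3.99 to 5.50% in wildtype libraries. Nnat, Gnas, Dlk1 and Mest supplied 71.3 to 78.8% of those counts in APC-mutant and 82.7 to 91.4% in wildtype libraries. Per kb of exon, Nnat ranked first in both genotypes, at 859 in APC-mutant and 13039 in wildtype libraries (CPM per kb). Mest stood at 751 in APC-mutant and 689.8 in wildtype libraries, Gnas at 350.4 in APC-mutant and 901 in wildtype libraries, Cdkn1c at 205 in APC-mutant and 518 in wildtype libraries and Dlk1 at 131 in APC-mutant and 625 in wildtype libraries. In this order H19 held rank 6 in APC-mutant and rank 15 in wildtype libraries, at 113 in APC-mutant and 11.1 in wildtype libraries. Igf2 stood at 96 in APC-mutant and 9.79 in wildtype libraries, and Meg3 at 3.64 in APC-mutant and 39.4 in wildtype libraries.

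Related genes were described from lists outside the 33. Of 38 further imprinted genes, 37 were matched and 34 tested, of which 10 were higher (29.4%, against 30.7% of all tested genes) and 13 lower (38.2%, against 28.5%), with a median log2 fold change of -0.27. The log2 fold changes of those with the smallest p follow. Dcn, the matrix proteoglycan decorin and also one of the mesenchymal markers, had 3.53 ± 0.19 (SE, adjusted p = 2.43e-09) and Tfpi2, a protease inhibitor, 6.94 ± 0.52 (SE, adjusted p = 5.87e-08), while Nap1l5 had -5.26 ± 0.27 (SE, adjusted p = 1.74e-09) and Blcap, whose intron holds Nnat, -1.47 ± 0.10 (SE, adjusted p = 1.78e-08). Of 12 genes that maintain imprints, 9 were tested, with 4 higher (44.4%), 1 lower (11.1%) and a median of 0.30. Uhrf1, which guides the maintenance methyltransferase to replicated DNA, rose at 1.5 ± 0.17 (SE, adjusted p = 3.04e-06), as did Zfp57 at 1.23 ± 0.30 (SE, adjusted p = 0.00275). Trim28, the co-repressor that ZFP57 recruits, fell, at -0.42 ± 0.11 (SE, adjusted p = 0.0036). Of 10 genes of IGF2 binding and response, 9 were tested, with 4 higher (44.4%), 3 lower (33.3%) and a median of -0.07. Igf1 rose, at 2.93 ± 0.19 (SE, adjusted p = 1.2e-08), and so did Igf2bp3, which encodes an IGF2 mRNA binding protein, at 1.39 ± 0.17 (SE, adjusted p = 8.07e-06). Irs2, an adaptor of insulin and IGF receptors, fell, at -0.99 ± 0.27 (SE, adjusted p = 0.00574), and so did Igf1r, the receptor through which IGF2 signals, at -0.69 ± 0.22 (SE, adjusted p = 0.0135).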

How the data were processed

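The deposited values are raw counts of read pairs per gene, made by the authors with featureCounts 2.0.1 on GENCODE M33 (GRCm39), per the file headers, which record no strand option and counting of a pair for each gene it overlaps. Per the labels' protocols, the libraries were poly(A)-enriched after SMARTer amplification. STAR 2.7.9a, Trim Galore 0.6.5 and DESeq2 are also named, per the submitters' processing notes. The header names 30 alignment files, of which the 11 with a column were used. Symbols matched 91.2% of identifiers, with 98.6% of counts. The 3 counts that a count of 0 allows equal 0.114 to 0.198 CPM.

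Counts were filtered with filterByExpr, scaled by TMM and tested with edgeR 4.0.16 in R 4.3.3 (quasi-likelihood F test, Benjamini-Hochberg adjustment over 20622 genes), a procedure tested on simulated data. Standard errors were derived from the fold change and its F statistic. Ratios of neighbouring genes are log2 ratios of counts plus 0.5 within a library, tested by exact permutation of the libraries over 462 splits and adjusted over 15 pairs. Alternatives used DESeq2 1.42.0, limma 3.58.1, other scalings and filters, and left-out libraries.

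The imprinted genes and the other lists were chosen with earlier results of these data known. For some genes the level in each APC-mutant library is given, with the lowest, median and highest wildtype level. These were the 3 called genes with the largest fold change in each cluster with a mean of at least 1 CPM. Igf2, H19, Dlk1, Meg3 and Cdkn1c were included in any case. Mest and Kcnq1ot1 were chosen after their values were seen. From other lists the 2 genes with the smallest p in each direction are named. Copies near-identical to a listed gene were not examined.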

Additional observations from a re-analysis of the deposited data

Results flagged for a closer look

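In each genotype the highest and the lowest library were compared with the nearest other library by Dixon's test on the log2 scale, for the 33 imprinted genes and the 15 ratios of neighbours. Of 96 groups of libraries, 5 held a library that stood apart, where chance gives about 1 in 20. Nnat in APC-mutant replicate 5 was 2295 CPM, with 1339 to 1442 CPM in the other APC-mutant libraries. Snrpn in wildtype replicate 6 was 129 CPM, with 183 to 225 CPM in the other wildtype libraries. Snurf, whose counts lie inside Snrpn, was 35.1 CPM in the same library, with 50.2 to 56.2 CPM in the others. Plagl1 in wildtype replicate 2 was 141.7 CPM, with 255 to 321 CPM in the others. Rian in wildtype replicate 2 was 129.2 CPM, with 231.5 to 299 CPM in the others.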

How the results depend on the processing

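Over 22 alternatives, of which the fit without wildtype replicate 3 and the unblocked fit of the 10 libraries that share numbers are the same fit, the number of called genes among all tested ranged from 8844 to 13867, with 7 to 10 imprinted genes higher and 18 to 20 lower. No called imprinted gene changed sign, and 27 of the 33 kept their call throughout. The exceptions were Kcnq1ot1, Magel2, Impact, Mest, Peg12 and Phlda2, whose values stand in the report. The alternative without wildtype replicates 1 and 5 was chosen after seeing the data. The median over maternally expressed genes was -0.16 with tissue-dependent genes counted as maternal and -0.22 without genes that overlap another gene, both alternatives holding a different set of genes. Over omissions of single libraries, the log2 difference of Rian over Meg3 ranged from 0.54 to 0.73. That of Phlda2 over Cdkn1c ranged from 2.24 to 2.92. Some omissions lost their calls, and each omission left fewer splits for the permutation test. Of the 15 ratio pairs, 13 kept their calls under all 13 alternatives. Genes near 1 CPM, such as Phlda2, Peg12 and Magel2, are limited by depth.

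Replicate numbers shared by the genotypes did not pair the libraries: deviations of same-numbered libraries from their group means correlated at 0.05, -0.13, 0.01, -0.06 and -0.05. With the replicate number as a block, 11490 of 23135 tested genes were called, against 11638 of 20381 without it on the same 10 libraries, where the filter on low counts also differed. Among the imprinted genes 7 were higher and 19 lower with the block, and 7 and 19 without it.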
